A study of Mus musculus with 24 samples.

Results

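Microglia of PBS-injected mice were measured in these data by 2 routes, and the values below set one beside the other, gene by gene. The RNA-seq route used cells taken out of the brain: 3 libraries of adult wild-type C57BL/6 mice that received PBS into the peritoneum once a day for 4 days, with 2 brains in each dissociation tube. After perfusion with heparinized PBS, the tissue was digested on a heated dissociator, cleared of debris and myelin, and selected with CD11b beads, which bind an integrin of myeloid cells. Polyadenylated RNA was then sequenced. The PAPERCLIP route left the cells in place: 3 libraries of whole brain from Cx3cr1-Cre; Ctag-PABP mice labelled as PBS-treated. In that assay Cre switches on PABP, the poly(A)-binding protein, with a GFP tag, the protein is crosslinked to RNA and pulled down with antibodies to GFP, and the bound 3′ ends are sequenced. Strain, age, dose and injection schedule of the PAPERCLIP mice are not stated in the labels. These 6 libraries, of 24 in the series, were chosen by treatment and cell type, and their genes were joined by symbol.

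Assay, isolation, genotype and any RNA carried over from other cells differ together between the routes, so their parts in a difference cannot be told apart. Further sets served as points of comparison. In LPS-treated mice the same pair of assays was run, with 3 RNA-seq libraries (C57BL/6, wild type, 1 mg/kg lipopolysaccharide daily for 4 days) and 3 Cx3cr1-Cre; Ctag-PABP PAPERCLIP libraries. In cortex, 3 ribosome-depleted RNA-seq libraries of Ptbp2-KO embryos at E18.5 could be set against 6 PAPERCLIP libraries of Gfap-Cre, Gad2-Cre and Camk2a-Cre; Ctag-PABP mice. Finally, 2 untreated Cx3cr1-Cre; Ctag-PABP brain libraries and 1 PAPERCLIP library of CL57/B6J liver were used for single comparisons within the PAPERCLIP assay.

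Microglia are the resident macrophages of the brain. They survey the tissue with motile processes, clear debris, and carry a characteristic set of surface receptors, complement components and lysosomal enzymes. Immediate-early genes such as Fos and Jun are transcribed within minutes of many stimuli and their mRNAs are short-lived, and the heat shock chaperones fold damaged proteins and are induced by proteotoxic stress. Poly(A)-binding protein coats the tails of mRNAs in every cell, and its occupancy of a given mRNA need not follow that mRNA's abundance. Cx3cr1, the fractalkine receptor that drives the Cre line, is also used by macrophages at the borders of the brain and by monocytes in blood.

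The RNA-seq libraries held 2019896, 1254076 and 1751725 counts and the PAPERCLIP libraries 275894, 266330 and 337770. A count of 3 therefore corresponded to 1.58 to 2.50 CPM (counts scaled to a common library total) in RNA-seq and to 8.91 to 11.3 CPM in PAPERCLIP, so low levels were read less well in PAPERCLIP. All 12 defining microglial markers had counts in each of the 6 libraries. They took 4.71, 4.55 and 4.50% of the RNA-seq counts and 3.46, 3.38 and 3.21% of the PAPERCLIP counts, against 0.00427 to 0.0151% in the cortical PAPERCLIP libraries. In bulk libraries, fewer cells of a type and less RNA per cell cannot be told apart. One library of each assay stood apart in genes of other cell types: RNA-seq replicate 3, with less choroid plexus RNA and more endothelial and neutrophil RNA, and PAPERCLIP replicate 3, with more neuronal and liver RNA. Y-linked transcripts were also read only in the third RNA-seq library and in all 3 PAPERCLIP libraries; the labels give no sex.

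The rank order of genes differed far more between the routes than within either. Over 8518 genes tested, Spearman's rho averaged 0.423 across the 9 pairs of an RNA-seq with a PAPERCLIP library (0.382 to 0.450). It was 0.962 to 0.980 among the RNA-seq libraries and 0.894 to 0.915 among the PAPERCLIP libraries. The points of such a correlation are genes that share libraries, and it is given as a description. Transcript length enters RNA-seq levels and not PAPERCLIP levels, and no correction for length was made, so a rank compares a gene with others of its own library only. At the top of both orders stood Cst3, which encodes the protease inhibitor cystatin C. It ranked 3, 2 and 2 in RNA-seq and 2, 1 and 2 in PAPERCLIP. Csf1r, the receptor for the growth factors microglia depend on, ranked 2, 1 and 1 in RNA-seq and 9, 7 and 9 in PAPERCLIP. The AP-1 subunit Jun ranked 34, 22 and 23 in RNA-seq but 1720, 3210 and 2259 in PAPERCLIP. The inducible heat shock gene Hspa1a ranked 161, 130 and 280 in RNA-seq but 7694, 4762 and 7867 in PAPERCLIP. Ranks 7694 and 7867 are the place shared by all tested genes without a count in that library, and 4762 rests on 6 counts.

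Of all genes tested, 67.7% differed, which sets the level against which each gene group is read. With edgeR's quasi-likelihood test at a Benjamini-Hochberg adjusted p of 0.05, 3228 genes (37.9%) were higher and 2541 (29.8%) lower in RNA-seq. Of these, 1601 (18.8%) were at least 4-fold higher and 915 (10.7%) at least 4-fold lower. The median over all genes tested was a log2 difference, RNA-seq over PAPERCLIP, of 0.23. Scaling by total counts instead raised this median to 0.70 and the share of calls that were higher in RNA-seq to 69.1%, from 56.0% with the scaling used here, so differences smaller than that shift depend on the scaling. Thinning every library to the shallowest left 1988 genes higher and 1767 lower. The labels do not say that libraries came from separate animals, so each p-value measures how libraries vary, and some of that variation may be technical.

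The LPS libraries, which share none with the PBS libraries, gave like calls. There 3653 of 9254 genes (39.5%) were higher and 3209 (34.7%) lower in RNA-seq. Over 8282 genes tested under both treatments, 2839 were higher in RNA-seq under both, which is 90.4% of the PBS calls and 86.0% of the LPS calls. The lower calls shared 2356 genes, 94.7% of the PBS calls and 80.7% of the LPS calls. The genes called in opposite directions numbered 4, namely Ccl2, Tnf, Cyfip2 and Epb41l3, and both cytokines among them are described with their group.

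**Figure D1:**
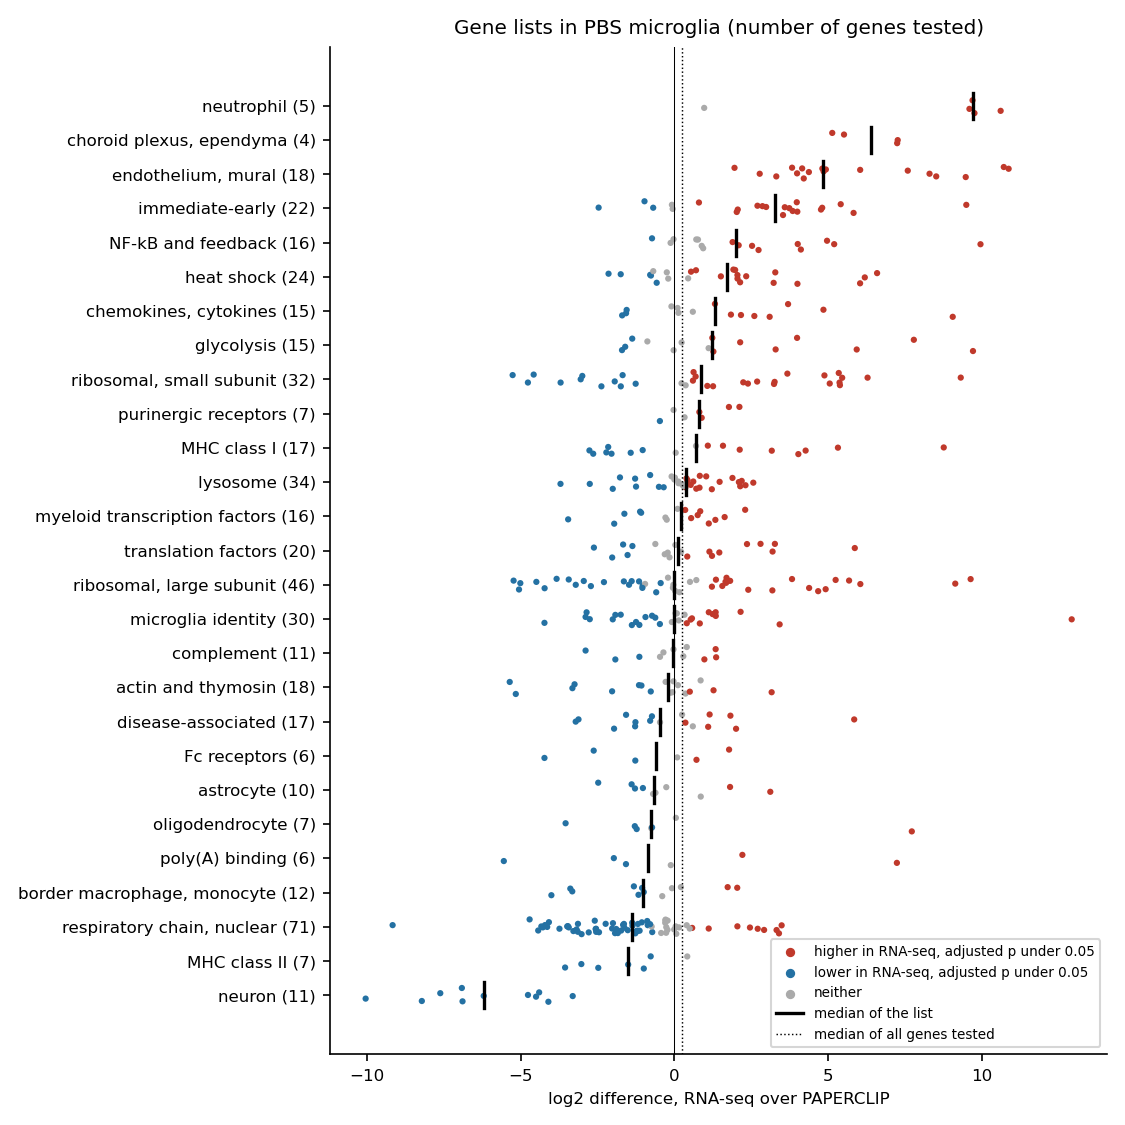
Log2 difference (RNA-seq over PAPERCLIP) of each tested gene of 27 gene lists in PBS microglia; each point is a gene, black bars are list medians and the dotted line is the median of all 8518 genes, 0.23. The immediate-early median lies at 3.26 and the heat shock median at 1.72, the ribosomal and microglial lists spread to both sides, and the nuclear respiratory chain median lies at -1.36.

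Immediate-early genes were higher in RNA-seq as a group. Summed over all 25 members, they took 1.34, 1.65 and 1.59% of the RNA-seq counts and 0.620, 0.769 and 0.592% of the PAPERCLIP counts. The assays did not overlap, and the exact permutation p was 0.1, the smallest that 3 libraries against 3 allow, as for every share below unless another value is given. Of the 25 members, 22 passed the filter on low counts, 17 were called higher in RNA-seq (background 37.9%) and 3 lower (background 29.8%), with a median log2 difference of 3.26 against 0.23 for all genes. Members that passed only because RNA-seq was high had to differ, so these counts describe the list and are no test of it. The 3 that did not pass were Egr3, Maff and Gadd45b.

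Of the AP-1 genes, Jun and 4 others were higher in RNA-seq and Fosl2, given further on, was lower. Jun had 2187, 2652 and 2361 normalised CPM in RNA-seq and 113, 54.0 and 87.7 in PAPERCLIP. Each RNA-seq library lay far above each PAPERCLIP library (log2 difference 4.81, SE 0.21, adjusted p = 6.44e-09). Fos, its dimer partner, had 909, 1217 and 1034 normalised CPM in RNA-seq, while PAPERCLIP held 1 count in all 3 libraries together. The ratio was 769, with a 95% counting interval of 138 to 30398. Fosb had 170, 210 and 179 normalised CPM in RNA-seq and 4.17, 9.0 and 7.02 in PAPERCLIP, again without overlap (log2 difference 4.77). Jund, often the steadily expressed member of the family, also differed, with 319, 455 and 441 in RNA-seq and 25.0, 0 and 3.51 in PAPERCLIP (log2 difference 5.41, or 7.64 without PAPERCLIP replicate 1). Junb differed less, with 755, 906 and 1018 normalised CPM in RNA-seq and 221, 194 and 239 in PAPERCLIP (log2 difference 2.03, adjusted p = 5.67e-07).

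Feedback genes of the same early wave followed. Dusp1, a phosphatase that switches off MAP kinases, had 472, 638 and 513 normalised CPM in RNA-seq and 0, 18.0 and 10.5 in PAPERCLIP. The groups stood wide apart (log2 difference 5.83, SE 0.36, adjusted p = 7.66e-08), and without PAPERCLIP replicate 2 the log2 difference was 6.58. Zfp36, which promotes decay of AU-rich mRNAs, had 1275, 1611 and 1632 normalised CPM in RNA-seq and 409, 365 and 312 in PAPERCLIP, so that it was well read by both assays and still higher in RNA-seq (log2 difference 2.06). The zinc finger regulator Egr1 had 396, 528 and 474 in RNA-seq and 16.7, 40.5 and 45.6 in PAPERCLIP (log2 difference 3.74). Differences of 3 to 4 on the log2 scale were also called for Atf3 (3.85), Klf2 (3.53), Klf4 (4.00, or 4.84 without PAPERCLIP replicate 2) and Ier3 (3.98, or 3.32 without PAPERCLIP replicate 3).

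The direction was not uniform. Myc, a growth-related transcription factor, had 50.8, 47.0 and 38.4 normalised CPM in RNA-seq and 192, 248 and 309 in PAPERCLIP. All RNA-seq values were below all PAPERCLIP values (log2 difference -2.47, adjusted p = 5.99e-07). Rhob, an immediate-early GTPase gene, was among the most abundant mRNAs by either route and lower in RNA-seq, with 2345, 2786 and 2648 normalised CPM against 4442, 6590.0 and 4249 in PAPERCLIP (log2 difference -0.97, adjusted p = 0.000374). Fosl2 was lower as well (log2 difference -0.69, a call lost without RNA-seq replicate 1 or 2 or without PAPERCLIP replicate 1 or 2, at -0.71 to -0.45, and with total counts, at -0.22), while Ier5 (-0.06) and Klf6 (-0.08) were called neither way. Rhob ranked 29, 20 and 15 in RNA-seq and 19, 14 and 17 in PAPERCLIP, which describes this gene and not the other members.

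In LPS microglia, 17 of 22 tested members were higher in RNA-seq (background 39.5%) and 4 lower (background 34.7%), with a median of 2.52, and 16 were higher under both treatments. Jun was at 617, 641 and 861 normalised CPM in LPS RNA-seq and at 89.4, 89.5 and 52.7 in LPS PAPERCLIP. The sign of the group turned in cortex. Between Ptbp2-KO cortex RNA-seq and cortical PAPERCLIP, on log2 of CPM plus 1, 17 of the same 22 genes were lower and 5 higher in RNA-seq, with a median of -1.61. Fos was at -4.83, Egr1 at -5.06, Dusp1 at -2.22 and Jun at -1.0 there. That pair differs from the microglial pair in age, genotype, cell type, tissue preparation and RNA selection, whose parts cannot be told apart.

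Heat shock and chaperone genes were the second stress group that was higher in RNA-seq. Over all 25 members, they took 0.935, 0.988 and 0.722% of the RNA-seq counts and 0.300, 0.351 and 0.304% of the PAPERCLIP counts, without overlap. Of 24 members tested, 15 were higher (background 37.9%) and 5 lower (background 29.8%) in RNA-seq, with a median log2 difference of 1.72. Here and in the lists below, members that passed the filter only because 1 assay was high had to differ. Replicate 3 was the lowest RNA-seq library for this group, in the sum and for most of its large members.

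Both inducible Hsp70 genes were far higher in RNA-seq. Hspa1a had 557, 684 and 379 normalised CPM in RNA-seq and 0, 27.0 and 0 in PAPERCLIP, where all 6 counts came from replicate 2. The groups were separate (log2 difference 6.04, SE 0.54, adjusted p = 1.54e-06). Its neighbour Hspa1b had 1185, 1515 and 886 normalised CPM in RNA-seq and 0, 54.0 and 0 in PAPERCLIP, with 12 counts in the same replicate 2 (log2 difference 6.19). Without replicate 2, PAPERCLIP held no count of either gene. Both genes encode nearly the same protein, so reads may have been divided between them in a way that cannot be recovered here. The constitutive relative Hspa8 had 1107, 1061 and 747 normalised CPM in RNA-seq and 50.1, 81.0 and 52.6 in PAPERCLIP (log2 difference 4.00, adjusted p = 5.33e-08). Hsp90aa1, the inducible cytosolic Hsp90, had 438, 475 and 287 in RNA-seq and 3 counts in PAPERCLIP, a ratio of 97.8 with a 95% counting interval of 33.4 to 475.

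Close relatives went the other way. Hsp90ab1, the constitutive Hsp90, had 1198, 1312 and 1031 normalised CPM in RNA-seq and 1612, 2071 and 1603 in PAPERCLIP, all below (log2 difference -0.58, adjusted p = 0.0042), although total-count scaling ended this call (-0.11). Hspe1, the mitochondrial co-chaperone, had 60.4, 59.9 and 51.7 in RNA-seq and 305, 216 and 239 in PAPERCLIP (log2 difference -2.14, adjusted p = 4.94e-07). Its partner Hspd1, whose gene lies head to head with it, was higher in RNA-seq (log2 difference 1.98). Among Hsp40 co-chaperones, Dnajb1 was higher (1.92) and Dnaja2 lower (-1.75). The endoplasmic reticulum chaperones Hspa5 (1.51) and Hsp90b1 (2.05) were both higher.

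The 200 bases upstream of 5 of these genes are shown because the members of each pair moved unlike or alike: both Hsp70 genes were far higher in RNA-seq, Hspe1 was lower although its window holds the same motif, and Jun and Dusp1 were high immediate-early genes. Sequences are from RefSeq on GRCm38.p6, written 5′ to 3′ on the strand of the gene, and the capitals mark the motif: GAANNTTC, an inverted pair of heat shock element blocks, in the first 4, and TGACGTCA, the cAMP response element, in the last. The windows are chr17:34972157-34972356 (minus strand) for Hspa1a, chr17:34959239-34959438 (minus) for Hspa1b, chr1:55087948-55088147 (plus) for Hspe1, chr4:95052223-95052422 (minus) for Jun and chr17:26508473-26508672 (minus) for Dusp1.
Hspa1a: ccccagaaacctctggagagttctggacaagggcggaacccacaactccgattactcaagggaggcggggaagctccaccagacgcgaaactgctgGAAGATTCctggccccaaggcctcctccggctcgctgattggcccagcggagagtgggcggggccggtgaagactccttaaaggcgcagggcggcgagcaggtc
Hspa1b: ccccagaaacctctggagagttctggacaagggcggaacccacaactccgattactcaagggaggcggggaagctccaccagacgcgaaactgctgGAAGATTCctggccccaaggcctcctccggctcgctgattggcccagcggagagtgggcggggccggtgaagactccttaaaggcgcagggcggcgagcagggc
Hspe1: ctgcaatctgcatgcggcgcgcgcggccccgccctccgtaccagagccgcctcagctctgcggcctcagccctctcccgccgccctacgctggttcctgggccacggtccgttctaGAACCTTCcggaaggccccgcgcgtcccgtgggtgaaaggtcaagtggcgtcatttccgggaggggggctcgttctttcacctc
Jun: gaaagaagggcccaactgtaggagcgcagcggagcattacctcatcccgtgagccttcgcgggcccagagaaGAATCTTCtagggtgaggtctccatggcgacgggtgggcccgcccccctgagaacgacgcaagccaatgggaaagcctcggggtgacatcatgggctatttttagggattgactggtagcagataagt
Dusp1: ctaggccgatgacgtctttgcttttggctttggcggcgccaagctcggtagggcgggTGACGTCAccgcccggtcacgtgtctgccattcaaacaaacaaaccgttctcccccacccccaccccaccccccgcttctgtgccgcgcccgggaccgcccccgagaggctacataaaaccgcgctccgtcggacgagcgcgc

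The windows of Hspa1a and Hspa1b were identical at 199 of 200 bases (99.5%). Both motifs read the same on either strand, and their letters do not allow them to overlap. GAANNTTC was found in 1760 of 32851 promoters (5.36%) and in 6 of the 19 heat shock genes with a promoter in the table: Dnaja1, Hspa1a, Hspa1b, Hspb1, Hspd1 and Hspe1. Of those 6, the log2 difference was positive for Hspa1a, Hspa1b, Hspb1 and Hspd1 and negative for Dnaja1 and Hspe1. Among 21 immediate-early genes with a promoter it was found in Jun alone. TGACGTCA was found in 483 promoters (1.47%), in 4 of the 21 immediate-early genes (Btg2, Dusp1, Maff and Ppp1r15a) and in none of the 19 heat shock genes. A match is a description of these letters, not of a bound site.

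**Figure D2:**
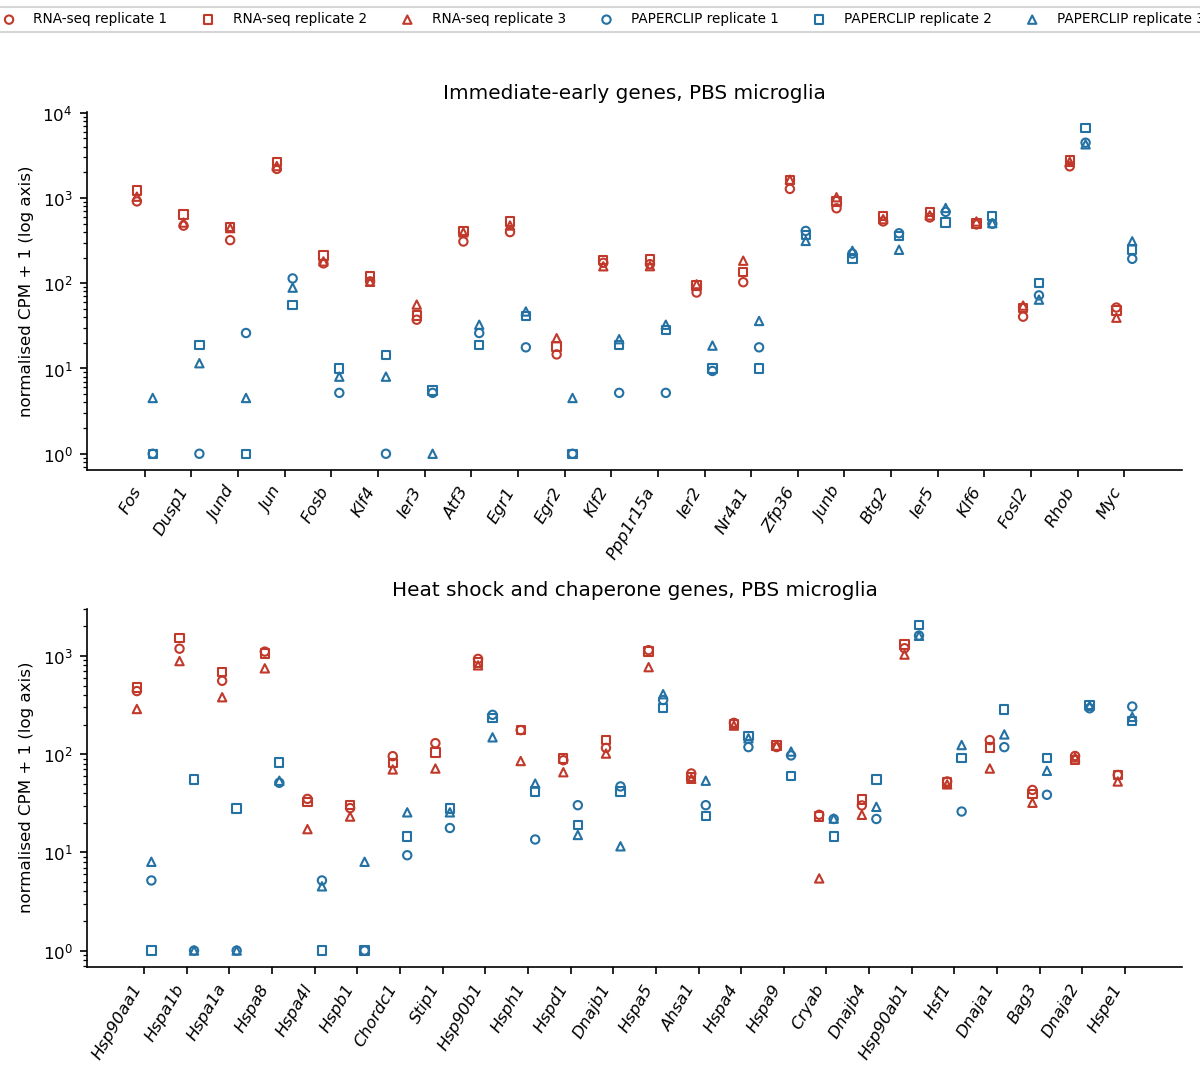
Normalised CPM plus 1 (log axis) of the tested immediate-early genes (upper panel) and heat shock genes (lower panel) in each PBS library, with RNA-seq in red at the left of each gene and PAPERCLIP in blue at the right. Genes run from the highest to the lowest log2 difference, with Fos and Hsp90aa1 at the left ends and Myc (-2.47) and Hspe1 (-2.14) at the right ends.

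For heat shock genes the LPS libraries gave 13 higher (background 39.5%) and 6 lower (background 34.7%) of 22 tested, with a median of 1.04. Called under both treatments were 12 higher and 5 lower. Hspa1b was at 175, 109 and 134 normalised CPM in LPS RNA-seq and at 7.82, 11.0 and 2.78 in LPS PAPERCLIP. Cortex did not treat the members alike. The cortical difference was 8.03 for Hspa8 and 7.77 for Hsp90aa1, the same sign as in microglia, but -2.89 for Hspa1a and -1.37 for Hspa1b.

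NF-kB and feedback genes, which include the brakes on inflammatory signalling, took 0.226, 0.248 and 0.263% of the RNA-seq counts and 0.0858, 0.0817 and 0.0736% of the PAPERCLIP counts. Of 16 tested, 9 were higher (background 37.9%) and 1 lower (background 29.8%) in RNA-seq, with a median of 1.99. Rel, an NF-kB subunit, had 109, 125 and 117 normalised CPM in RNA-seq and no count in PAPERCLIP, at least 28.9-fold higher when 3 counts are allowed to PAPERCLIP. Socs3, which limits cytokine receptor signalling, had 305, 313 and 398 in RNA-seq and 20.9, 9.0 and 3.51 in PAPERCLIP (log2 difference 4.97, adjusted p = 1.49e-07, or 5.85 without PAPERCLIP replicate 1). Nfkbiz (5.20, or 6.07 without PAPERCLIP replicate 3) and Tnfaip3 (2.53) were higher too. Nfkb1 was the member called lower (-0.73, a call that total-count scaling ended, at -0.27), and the inhibitor Nfkbia differed by less than the spread between libraries (-0.12, adjusted p = 0.613).

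Chemokines and cytokines divided by gene and by treatment. Over all 22 members, their share was 0.168, 0.176 and 0.200% in RNA-seq and 0.10, 0.0791 and 0.0751% in PAPERCLIP. Of 15 tested, 8 were higher (background 37.9%) and 3 lower (background 29.8%) in RNA-seq. Ccl3, a monocyte attractant, had 306, 301 and 361 normalised CPM in RNA-seq and 20.9, 58.5 and 35.1 in PAPERCLIP (log2 difference 3.10, adjusted p = 5.36e-07), and its relative Ccl4 was at 2.60. Under LPS neither passed the test (Ccl3 -0.33, Ccl4 0.23). Ccl2 had 29.5, 41.3 and 45.8 normalised CPM in PBS RNA-seq and 20.9, 4.50 and 7.02 in PBS PAPERCLIP (log2 difference 1.84, adjusted p = 0.00487, or 2.72 without PAPERCLIP replicate 1). Under LPS it was lower in RNA-seq, at 32.4, 56.0 and 35.4 against 276, 283 and 48.6 in PAPERCLIP (log2 difference -2.26, adjusted p = 0.000929), although the groups overlapped.

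Tnf differed in the same manner, at 1.32 in PBS (adjusted p = 0.0291) and -1.25 in LPS (adjusted p = 0.0353). Its PBS call was lost when any 1 PAPERCLIP library was left out, with a log2 difference of 1.28 to 1.44 in those fits. Il1b had 42.2, 50.6 and 93.5 normalised CPM in RNA-seq and no count in PAPERCLIP, at least 15.6-fold higher, and RNA-seq replicate 3, highest here, was also highest in neutrophil genes, whose part was not tested. Tgfb1, a cytokine that maintains microglial identity, had 331, 319 and 289 in RNA-seq and 16.7, 18.0 and 0 in PAPERCLIP (log2 difference 4.85, or 4.17 without PAPERCLIP replicate 3). The 3 chemokines called lower were Ccl6 (-1.57), Ccl9 (-1.70) and Ccl12 (-1.55).

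Microglial identity genes did not move as a group. All 30 were tested, and 11 were higher (background 37.9%) and 14 lower (background 29.8%) in RNA-seq. The median log2 difference was -0.02, which became 0.44 when libraries were scaled by total counts. The sum over the list was lower in RNA-seq, at 8.85, 8.60 and 8.50% of counts against 14.1, 16 and 12.3% in PAPERCLIP, since a few very abundant mRNAs were lower.

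Cst3 was the largest of these. It had 9845, 9651 and 9325 normalised CPM in RNA-seq and 59630.4, 85629.6 and 49177 in PAPERCLIP. Every RNA-seq library was several-fold below every PAPERCLIP library (log2 difference -2.75, SE 0.20, adjusted p = 2.65e-07), and in LPS the log2 difference was -3.10. The rank of Cst3 nevertheless stayed within the top 3 in all 6 libraries. Csf1r, at 10153, 10268 and 9833 normalised CPM in RNA-seq and 9544, 10934 and 9031 in PAPERCLIP, differed by less than the spread between libraries (log2 difference 0.04, adjusted p = 0.82).

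Surface receptors went both ways. Cx3cr1 had 5728, 5862 and 5875 normalised CPM in RNA-seq and 1724, 1134 and 1070.1 in PAPERCLIP (log2 difference 2.15, adjusted p = 8.06e-07), and whether the Cre allele of the PAPERCLIP mice alters this gene is not stated in the labels. Siglech, a sialic acid receptor of microglia, had 1107, 1118 and 1108 in RNA-seq and 96.0, 122 and 94.7 in PAPERCLIP (log2 difference 3.42, adjusted p = 7.41e-09). Mertk, the receptor tyrosine kinase for engulfing dying cells, was the extreme, with 922, 907 and 915 normalised CPM in RNA-seq and no count in PAPERCLIP, at least 228-fold higher. Tgfbr1 (1.35) and Selplg (1.24) were also higher. P2ry12, the purinergic receptor that guides processes to injury, was a little lower, at 4622, 4017 and 3728 in RNA-seq and 6120.4, 5528 and 5512 in PAPERCLIP (log2 difference -0.47, adjusted p = 0.00725), a call lost with total-count scaling (-0.01) and without RNA-seq replicate 2 (-0.39) or 3 (-0.36).

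Genes that lie side by side in one complex could differ in opposite directions. The 3 chains of complement C1q are encoded by a gene cluster and assemble in equal numbers. C1qa had 2523, 2518 and 2372 normalised CPM in RNA-seq and 1136, 914 and 877 in PAPERCLIP, and was higher in RNA-seq (log2 difference 1.34, adjusted p = 4.52e-06). C1qb had 2424, 2299 and 2240.1 in RNA-seq and 5060.0, 4834 and 5452 in PAPERCLIP, and was lower (-1.14, adjusted p = 6.96e-06). C1qc was lower still, at 2241, 2320.1 and 2133 in RNA-seq and 17643, 17353 and 14656 in PAPERCLIP (-2.89, adjusted p = 1.25e-08). In PAPERCLIP, C1qc stood an order of magnitude above C1qa in each library. No transcript lengths were used, and their part in these differences was not tested. Adaptor genes of the receptor complexes were lower in RNA-seq as well. Fcer1g, the common Fc receptor chain, had 331, 314 and 312 against 5924, 7166 and 4873 normalised CPM in PAPERCLIP (log2 difference -4.23). Tyrobp had 438, 423 and 449 against 2914, 2647 and 3929.7 in PAPERCLIP (-2.86).

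Of 34 lysosomal genes tested, 17 were higher in RNA-seq (background 37.9%) and 9 lower (background 29.8%), with a median log2 difference of 0.38 against 0.23 for all genes. The sum of the list, 6.00, 5.86 and 5.91% of RNA-seq counts and 10.1, 12 and 8.63% of PAPERCLIP counts, went the other way and holds Cst3. The protease gene Ctsd had 7739, 7472 and 7304 normalised CPM in RNA-seq and 2543, 3250.0 and 2337 in PAPERCLIP (log2 difference 1.47). The saposin precursor Psap was at 2.10 and progranulin, Grn, at 2.57. Ctss (-2.01), Lgmn (-1.77) and the protease inhibitor Cstb (-3.71) were lower, and Ctsb did not pass the test (adjusted p = 0.998).

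Antigen presentation genes were split as well. Of 17 MHC class I genes, 8 were higher (background 37.9%) and 7 lower (background 29.8%) in RNA-seq. The light chain B2m had 1414, 1319 and 1244 normalised CPM in RNA-seq and 8972, 8301 and 7561 in PAPERCLIP (log2 difference -2.64), and the heavy chains H2-K1 (-2.77) and H2-D1 (-2.15), whose reads may be shared, were lower too, while the non-classical heavy chain H2-T23 (4.27) was higher. The loading factors Calr (3.17) and Tapbp (4.03, or 4.77 without PAPERCLIP replicate 1) were higher. Of 7 class II genes tested, none was higher (background 37.9%) and 6 were lower (background 29.8%). H2-Eb1 had 134, 127.6 and 106 in RNA-seq and 1336, 1796 and 1207 in PAPERCLIP (log2 difference -3.56, adjusted p = 1.44e-08), and the invariant chain Cd74 was at -2.48. Class II genes are background markers of border macrophages and monocytes as well, whose summed markers took 0.220, 0.250 and 0.287% of RNA-seq counts and 0.157, 0.146 and 0.145% of PAPERCLIP counts. That sum rests on Stab1: without it the other 14 took 0.0786, 0.0942 and 0.115% of RNA-seq counts and 0.129, 0.121 and 0.116% of PAPERCLIP counts. Of 12 of these markers tested, 2 were higher (background 37.9%) and 7 lower (background 29.8%) in RNA-seq, with a median of -1.02. The part of these markers in the class II result was not tested.

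Disease-associated microglial genes gave 6 higher (background 37.9%) and 8 lower (background 29.8%) of 17 tested. Apoe, the lipid carrier, averaged 1462 ± 97.4 normalised CPM in RNA-seq and 364 ± 18.51 in PAPERCLIP (SD, n = 3 each; log2 difference 2.01). Lyz2, lysozyme of myeloid cells including neutrophils, averaged 469 ± 103 in RNA-seq and 7.90 ± 3.32 in PAPERCLIP (SD, n = 3 each; log2 difference 5.85). Spp1 (-3.12) and Cd9 (-1.96) were lower. Among 16 myeloid transcription factors, 8 were higher (background 37.9%) and 5 lower (background 29.8%) in RNA-seq. Fli1 (2.30), Mef2a (1.63) and Sall1 (1.12), which encodes a microglia-restricted regulator, were higher and Cebpb (-3.46) and Cebpa (-1.96) lower.

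Ribosomal protein genes were spread widely to both sides. Of 78 tested, 38 were higher (background 37.9%) and 30 lower (background 29.8%) in RNA-seq, with a median of 0.55. At least 4-fold higher were 25 (background 18.8%) and at least 4-fold lower 18 (background 10.7%). The large subunit had 19 higher and 19 lower of 46 (median -0.01), which total-count scaling moved to a median of 0.46, and the small subunit had 19 higher and 11 lower of 32 (median 0.88). Their sum was lower in RNA-seq, at 1.08, 1.06 and 1.06% of counts against 3.27, 2.87 and 3.24% in PAPERCLIP. A few members carried the PAPERCLIP sum. Rplp1, an acidic stalk protein, had 285, 294 and 244 normalised CPM in RNA-seq and 10370.5, 6428 and 10572 in PAPERCLIP (log2 difference -5.06, SE 0.22, adjusted p = 6.28e-09). Rps24 had 113, 104 and 105 in RNA-seq and 3933, 4578 and 3909 in PAPERCLIP (log2 difference -5.26, adjusted p = 8.74e-10).

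Others were almost unread in PAPERCLIP. Rpl7 had 210, 161 and 182 normalised CPM in RNA-seq and 2 counts in PAPERCLIP, a ratio of 70.1 with a 95% counting interval of 19.4 to 580. Rpl10a, Rpl28 and Rps13 had no PAPERCLIP count and were at least 23.2-fold, 16.6-fold and 18.54-fold higher in RNA-seq. Rpl4 did not pass the test (log2 difference -0.21, adjusted p = 0.22). Levels of the 79 genes listed ran from 0.948 to 502 plain CPM in RNA-seq, not corrected for length, with a median of 119, and from 0 to 7784 in PAPERCLIP, with a median of 56.0. In PAPERCLIP, 8 of the 79 were at 1000 CPM or more and 24 under 10.

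The PAPERCLIP order of these genes was shared by other cells measured with that assay. Across the 79 genes, Spearman's rho was 0.164 between the routes in PBS microglia. It was 0.921 between PBS microglia and Camk2a-Cre cortex in PAPERCLIP, 0.902 with Gad2-Cre, 0.918 with Gfap-Cre and 0.893 with liver. Within RNA-seq, rho was 0.679 between PBS microglia and Ptbp2-KO cortex, although their RNA was selected differently. These are descriptions across genes within libraries. Many ribosomal protein genes have processed copies elsewhere in the genome to which reads can be assigned. A copy was counted only where its symbol was the gene's own followed by -ps, so genes without one may have copies under other names. The 61 members with a copy so named had a median of 1.07, with 34 higher (background 37.9%) and 21 lower (background 29.8%). The 17 members without one had a median of -0.45, with 4 higher and 9 lower, against the same backgrounds. The part of such copies was not tested.

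**Figure D3:**
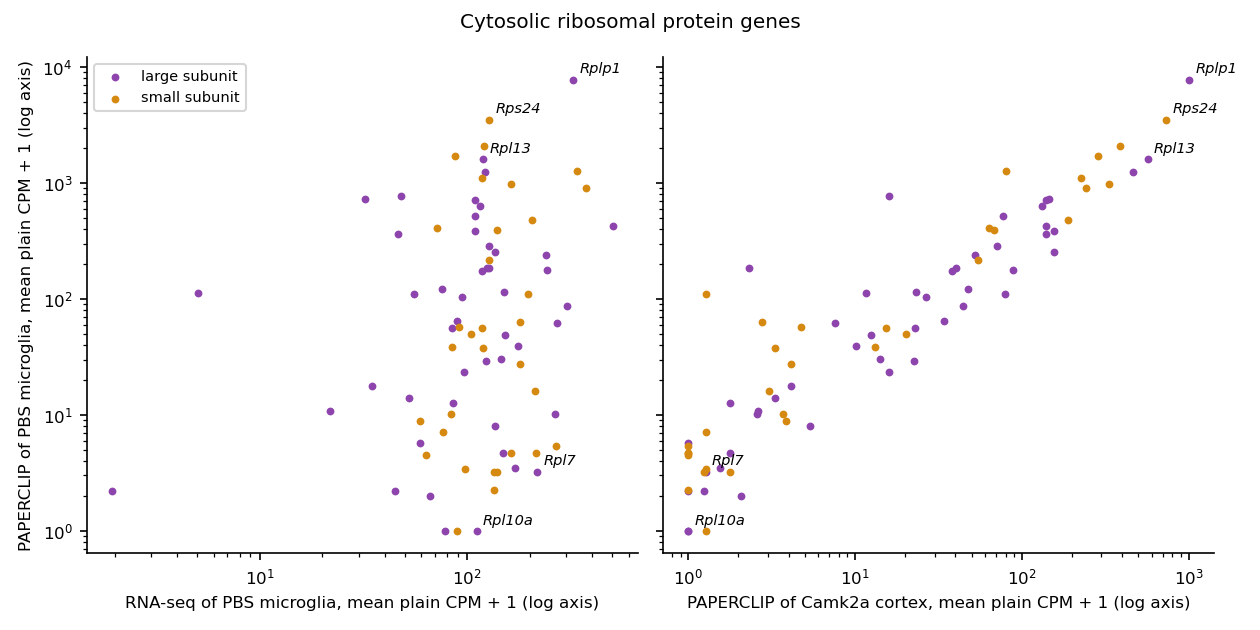
Mean plain CPM plus 1 (log axes) of 79 cytosolic ribosomal protein genes in PBS microglia PAPERCLIP (vertical axis) against PBS microglia RNA-seq (left panel) and against Camk2a-Cre cortex PAPERCLIP (right panel), coloured by subunit. Points scatter at left (Spearman's rho 0.164) and follow a narrow band at right (0.921), with Rplp1 and Rps24 high and Rpl7 and Rpl10a near 0 in PAPERCLIP.

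Other parts of the translation machinery showed like contrasts. Of 20 translation factors, 9 were higher (background 37.9%) and 5 lower (background 29.8%) in RNA-seq. Eef1a1, the main elongation factor, had 1509.7, 1502 and 1496 normalised CPM in RNA-seq and 20.9, 49.5 and 10.5 in PAPERCLIP (log2 difference 5.87, adjusted p = 9.22e-09, or 6.65 without PAPERCLIP replicate 2), and has many pseudogene copies. Its exchange factor subunit Eef1b2 was at -2.62. The tag itself sits on a poly(A)-binding protein, so that family was examined gene by gene. Pabpc1, the cytoplasmic form, had 391.7, 418 and 431 normalised CPM in RNA-seq and 83.5, 135 and 56.1 in PAPERCLIP (log2 difference 2.21, adjusted p = 3.37e-06). Pabpn1, the nuclear form, had 20, 22.8 and 20.7 in RNA-seq and 923, 1148 and 905 in PAPERCLIP (log2 difference -5.55, adjusted p = 8.74e-10). The regulators Paip1 (-1.97) and Paip2 (-1.58) were lower, and Paip2b had no PAPERCLIP count.

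Nuclear genes of the respiratory chain were lower in RNA-seq as a group. All 75 members took 0.395, 0.367 and 0.319% of RNA-seq counts and 0.763, 0.716 and 0.955% of PAPERCLIP counts, without overlap. Of 71 tested, 47 were lower (background 29.8%) and 9 higher (background 37.9%), with a median of -1.36. At least 4-fold lower were 25 (background 10.7%) and at least 4-fold higher 7 (background 18.8%). In LPS, 47 of 73 were lower (background 34.7%) and 10 higher (background 39.5%). The cytochrome oxidase subunit Cox7c had 15.4, 18.53 and 11.8 normalised CPM in RNA-seq and 326, 486 and 379 in PAPERCLIP (log2 difference -4.71, adjusted p = 7.07e-09). The complex I subunits Ndufb3 (-4.43) and Ndufc2 (-4.08) were alike. Ndufb4 had a single count in RNA-seq and 146, 140 and 218 normalised CPM in PAPERCLIP. Among those higher in RNA-seq were Uqcrc1 (3.40), a core subunit of complex III, and Atp5b (1.12), the catalytic subunit of ATP synthase.

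Actin regulators included the most abundant PAPERCLIP mRNA. Tmsb4x, the actin monomer binder thymosin beta 4, had 1913, 1755 and 1808 normalised CPM in RNA-seq and 71149, 78783 and 74825 in PAPERCLIP. It ranked 35, 35 and 31 in RNA-seq and 1, 2 and 1 in PAPERCLIP (log2 difference -5.36, adjusted p = 8.74e-10). Pfn1, profilin, had 278, 309 and 350 in RNA-seq and 11502, 7567 and 14480.1 in PAPERCLIP (log2 difference -5.16), and Actb was at -1.07. The sum of the 18 genes was 1.03, 1.04 and 1.08% of RNA-seq counts and 8.4, 8.36 and 8.50% of PAPERCLIP counts. Of the 18, 8 were called lower (background 29.8%), 3 higher (background 37.9%) and 7 neither. Of 15 glycolytic genes, 8 were higher in RNA-seq (background 37.9%) and 3 lower (background 29.8%). Gapdh had 171, 187 and 155 normalised CPM in RNA-seq and 8.35, 0 and 0 in PAPERCLIP (log2 difference 5.93, or 5.27 without PAPERCLIP replicate 3), a gene with many pseudogene copies, and Eno1 had no PAPERCLIP count, at least 24.4-fold higher in RNA-seq. Aldoa went the other way (-1.60).

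Part of these contrasts was shared by cortex. Over the 8518 genes, the difference between assays in PBS microglia and that in cortex, both on log2 of CPM plus 1, had a Spearman's rho of 0.698, with medians of 0.68 in microglia and 0.65 in cortex. The pairs have no library in common. They share the assays but not the RNA selection, and the correlation is across genes and is given as a description. Ribosomal protein genes had a cortical median of 4.03, and respiratory chain genes one of -0.87. Pabpn1 was at -4.53 and Pfn1 at -3.70 in cortex, like in microglia, and Eef1a1 at 11.9. Rplp1, at -0.89 in cortex, and Rps24, at -0.74, were nearer to 0. Of the 38 lists, the immediate-early genes were the one with a microglial median above 1 on this scale, 3.44, and a cortical median below 0, -1.61.

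**Figure D4:**
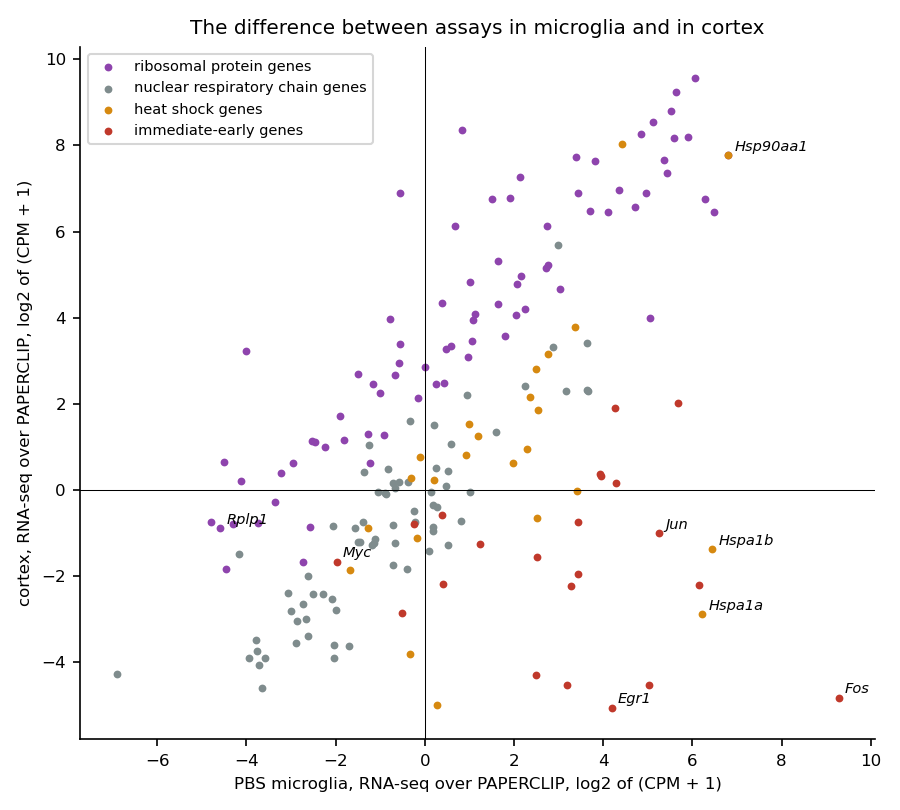
Difference between assays (RNA-seq over PAPERCLIP, log2 of CPM plus 1) in PBS microglia (horizontal) and in cortex (vertical) for 4 gene lists, 1 point a gene. Immediate-early genes lie mostly at the lower right, higher in RNA-seq of microglia and lower in RNA-seq of cortex, with Fos at -4.83 and Egr1 at -5.06 in cortex, while ribosomal protein genes lie mostly above 0 in cortex.

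Some abundant RNA-seq genes were missing from PAPERCLIP. Of 2257 genes with at least 100 plain CPM in RNA-seq, 61 (2.70%) had no count in the 3 PBS PAPERCLIP libraries. One of them, Mia2, is a gap in the symbols and not in the data, since PAPERCLIP listed 37, 27 and 31 counts under its other name Ctage5. Of the other 60, 29 had none in LPS PAPERCLIP either, 17 had none in any of the 14 brain PAPERCLIP libraries, and 44 reached 10 CPM in Ptbp2-KO cortex RNA-seq. They included the actin regulators Wasf2 and Cap1. Listed markers of other cells were also among the 60, namely S100a8, S100a9, Ngp and Ltf of neutrophils and Flt1 and Rgs5 of endothelial or mural cells. Wasf2 had 557, 592 and 670 normalised CPM in RNA-seq, at least 151-fold higher than in PAPERCLIP. Cap1 had 447, 469 and 561, at least 123-fold higher, and was at 0 in all 14 brain libraries. The mRNA decay factor Zfp36l2 was at least 126-fold and the kinase adaptor Mob1a at least 103-fold higher. A microRNA locus, Mir6236, was read at 3469, 1672 and 683 normalised CPM in RNA-seq, and Lars2, with 6 PAPERCLIP counts, at 10274, 4850 and 2197, so that these RNA-seq libraries differed among themselves by several-fold. Some RNA-seq entries outside the shared genes fell likewise from replicate 1 to 3, such as Gm23935 (6245, 2083 and 1015 raw counts). Others, such as Stard9 (773, 502 and 813), did not. Which RNA the reads assigned to Mir6236 and Lars2 came from was not tested.

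The reverse was rarer, but the RNA-seq libraries were deeper. A count of 3 over the group was 0.532 normalised CPM in RNA-seq and 4.02 in PAPERCLIP, so the numbers of genes at 0 are not on a like footing. Of 1699 genes with at least 100 plain CPM in PAPERCLIP, 5 had no RNA-seq count: Gm15772, Pcdhga10, Rpl34-ps1, Snurf and Sowahc. Sowahc had 605, 518 and 491 normalised CPM in PAPERCLIP, at least 1007-fold more than the RNA-seq floor. Gng10, a G protein subunit gene, had 5.90, 10.7 and 7.38 in RNA-seq and 2325, 2404 and 2017 in PAPERCLIP (log2 difference -8.17, adjusted p = 6.79e-10). The mitochondrial import subunit Tomm6 was nearly absent from RNA-seq and had 463, 320 and 411 normalised CPM in PAPERCLIP. The protocadherin gamma entry is not a single gene: all 22 genes of that cluster were listed with the same PAPERCLIP counts of 21, 36 and 71, while no RNA-seq count of a member exceeded 39.

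Genes of other cell types differed between the routes in both directions. Endothelial and mural genes took 0.137, 0.127 and 0.244% of RNA-seq counts and 0.00182, 0.00414 and 0.00712% of PAPERCLIP counts, a 38.8-fold ratio of means. Choroid plexus and ependymal genes took 1.36, 1.28 and 0.323% of RNA-seq counts and 0.00291, 0.00339 and 0.0356% of PAPERCLIP counts, 70.9-fold by means. Neutrophil genes took 0.0342, 0.0162 and 0.163% of RNA-seq counts and 0.00145, 0.00151 and 0.00148% of PAPERCLIP counts, 48.0-fold. No RNA-seq library overlapped with PAPERCLIP in these 3 lists, but replicate 3 of RNA-seq was lowest for choroid genes and highest for the others. Without PAPERCLIP replicate 3, the log2 ratio of choroid shares was 8.30 in place of 6.15, and without RNA-seq replicate 3 that of neutrophil shares was 4.09 in place of 5.58.

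Single genes show the same. Ttr, transthyretin of the choroid plexus, had 7045, 6387 and 1507 normalised CPM in RNA-seq and 8.35, 13.5 and 372 in PAPERCLIP (log2 difference 5.14, adjusted p = 0.000188, or 8.84 without PAPERCLIP replicate 3). It ranked 5, 4 and 38 in RNA-seq and 6653, 6071 and 465 in PAPERCLIP, so replicate 3 was the nearest to the other assay on both sides. The choroid list also took 0.459% of the counts of the liver PAPERCLIP library, and PAPERCLIP replicate 3 was the one with liver RNA. Choroid plexus and liver as sources of its Ttr and choroid-list counts cannot be told apart here. Flt1, an endothelial VEGF receptor, had 153, 135 and 368 in RNA-seq and no count in PAPERCLIP, at least 56.3-fold higher, or 36.4-fold without RNA-seq replicate 3. S100a9, a marker gene of neutrophils, had 97.6, 44.9 and 401 in RNA-seq and no PAPERCLIP count, at least 48.3-fold higher, or 19.2-fold without RNA-seq replicate 3, which held most of its counts. Called higher in RNA-seq were 18 of 18 endothelial, 4 of 4 choroid and 4 of 5 neutrophil genes tested (background 37.9%), from lists of 20, 10 and 14. These calls come from members that passed the filter through RNA-seq and are given for completeness. In LPS, choroid genes took 0.259 to 0.328% of RNA-seq counts and 0.00225 to 0.00299% of PAPERCLIP counts.

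Neuronal genes were the mirror image, at 0.00558, 0.00633 and 0.00696% of RNA-seq counts and 0.107, 0.0968 and 0.504% of PAPERCLIP counts, 37.5-fold more in PAPERCLIP by means. Snap25, a synaptic vesicle fusion gene, had 0.908, 1.43 and 0.984 normalised CPM in RNA-seq and 509, 423 and 2765 in PAPERCLIP (log2 difference -10.05, adjusted p = 2.67e-06). PAPERCLIP replicate 3 was the highest. Without it the log2 difference of Snap25 was -8.64, and the log2 ratio of neuronal shares was -4.02 in place of -5.23. The same PAPERCLIP library held 437 counts of Alb, the liver's albumin gene, against 1 and 0 in the other PAPERCLIP libraries and 0, 1 and 1 in RNA-seq. Hepatocyte genes took 0.000789, 0.000583 and 0.00342% of RNA-seq counts and 0.000364, 0 and 0.213% of PAPERCLIP counts (exact permutation p = 1).

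Oligodendrocyte genes summed to 0.0416, 0.0365 and 0.0451% of RNA-seq counts and 0.0880, 0.0829 and 0.108% of PAPERCLIP counts. That sum leans on the iron carrier gene Trf, at 49.0, 52.0 and 50.7 normalised CPM in RNA-seq and 639, 518 and 607 in PAPERCLIP (log2 difference -3.54). The share without Trf was not computed, so the sum does not speak for the other members. Of 7 members tested, 4 were lower in RNA-seq (background 29.8%), among them the myelin gene Mbp (-1.23). The 1 called higher (background 37.9%) was Cspg4, which had no PAPERCLIP count. Astrocyte genes took 0.226, 0.225 and 0.210% of RNA-seq counts and 0.254, 0.380 and 0.254% of PAPERCLIP counts. Much of that sum is Glul, at 1084, 1084 and 1100 normalised CPM in RNA-seq and 2380, 3934 and 1660 in PAPERCLIP (log2 difference -1.28). The astrocyte share without Glul was not computed. Of 10 members tested, 2 were higher (background 37.9%) and 4 lower (background 29.8%) in RNA-seq. Among the markers of border macrophages and monocytes, which also belong to the Cx3cr1 lineage, the scavenger receptor Stab1 was higher in RNA-seq (2.04), Pf4 was lower (-4.00), and the mannose receptor Mrc1 did not pass the test (-0.08, adjusted p = 0.663). Lymphocyte genes took 0.00377 to 0.00466% in RNA-seq and 0.00327 to 0.00416% in PAPERCLIP (exact permutation p = 0.4). Whether these shares bear on the stress genes was not tested. RNA-seq replicate 3, with the least choroid and the most endothelial and neutrophil RNA, had an immediate-early share of 1.59%, between those of the other 2 RNA-seq libraries, and the lowest heat shock share.

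**Figure D5:**
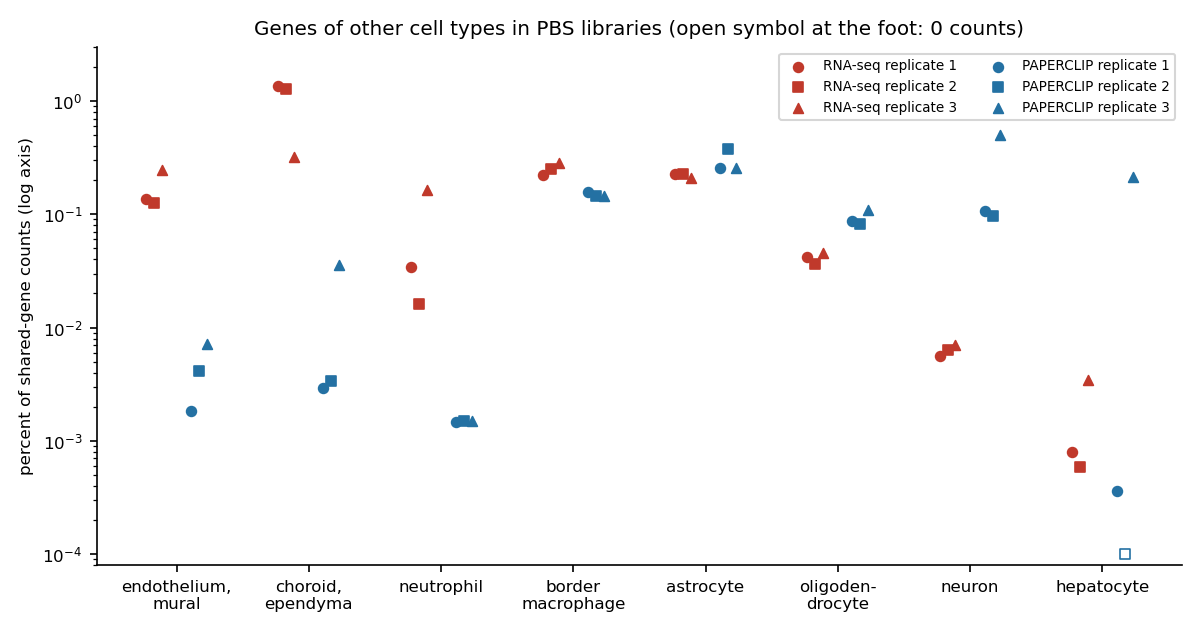
Percent of shared-gene counts (log axis) taken by marker genes of other cell types in each PBS library, with RNA-seq in red at the left and PAPERCLIP in blue at the right of each list and 1 symbol shape a replicate. Endothelial, choroid and neutrophil genes lie higher in RNA-seq and neuronal genes higher in PAPERCLIP. Oligodendrocyte genes also sum higher in PAPERCLIP, a sum that leans on Trf. The third replicate of each assay is the one farthest from the others in several lists.

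Long non-coding RNAs, several of which stay in the nucleus, were in part nearly absent from PAPERCLIP. Malat1 had 3420.3, 2982 and 2109.7 normalised CPM in RNA-seq and 1 count in all PAPERCLIP libraries together, a ratio of 2120 with a 95% counting interval of 380 to 83734. Neat1, the paraspeckle RNA, had 117, 104 and 94.5 in RNA-seq and 12.5, 4.50 and 7.02 in PAPERCLIP (log2 difference 3.69, adjusted p = 2.25e-06). In contrast Gas5, a host of small nucleolar RNAs, was lower in RNA-seq (-1.54), and the neuronal Meg3 was lower as well (-3.90, or -4.64 without RNA-seq replicate 1), in step with the neuronal genes above. Of 8 such RNAs tested, 4 were higher (background 37.9%) and 3 lower (background 29.8%).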

How the data were processed

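Each library came as raw counts per gene, whole numbers that the authors deposited unscaled. RNA-seq was mapped with STAR and PAPERCLIP with cutadapt and Novoalign on mm10, per the submitters' processing notes. The sources used here do not say whether reads sharing a 7-base random barcode were collapsed, how genes were assigned or whether counting used strand, so near-identical, overlapping and antisense genes are uncertain. PAPERCLIP listed 23871 genes by symbol and RNA-seq 47069 identifiers, of which 46488 matched a gene name. After 696 older symbols were updated, 23117 genes were shared, with 94.1 to 96.8% of RNA-seq counts and 99.7% of PAPERCLIP counts.

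Tests used edgeR 4.0.16 (R 4.3.3) quasi-likelihood fits of the 3 RNA-seq against the 3 PAPERCLIP libraries, with filterByExpr and TMM scaling over shared genes. P-values were adjusted by Benjamini-Hochberg across every gene tested, with a threshold of 0.05. LPS libraries were fitted apart. Normalised CPM use TMM-scaled totals and plain CPM the totals as they stand. Levels are per gene and not per length, since no transcript lengths were used. Folds against a group at 0 allow it 3 counts over the group. Ratios with 1 to 3 counts carry exact 95% intervals, which, like floors, cover counting error only. Shares of counts were compared with a 2-sided exact permutation test (scipy 1.17.1). The cortical differences are on log2 of CPM plus 1, without a test. The edgeR fits of the PBS and LPS libraries were checked on simulated counts with known changes, and the other steps were not. Replicate pairs differed by more than sampling noise, with chi-square per degree of freedom of 1.58 to 5.49 in RNA-seq and 2.11 to 4.03 in PAPERCLIP.

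The members and the 38 gene lists (709 genes) were chosen with earlier results of these data known. Genes were named by rule: Hspa1a, Jun, Cst3, Cx3cr1 and Pabpc1; the 10 largest differences each way among called genes whose groups did not overlap and whose average log2 CPM was at least 5, without predicted or mitochondrially encoded genes; in each list the 3 of smallest p on the side most members took and 1 from the opposite side; the most abundant of each list in each assay; and the 5 most abundant overall in each assay. Some of these are not described. Other list members are named for their role or sign and were picked after their values were seen. Alternatives were RLE scaling, total counts, totals over each assay's own table, no filter, at least 5 CPM in 3 libraries, DESeq2 1.42.0, limma 3.58.1 voom, thinning to 265509 counts, symbols as they stand, scaling without ribosomal protein genes, a replicate block, and leaving out libraries. Leaving out replicate 3 of both assays was added after seeing the data.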

Additional observations from a re-analysis of the deposited data

Results flagged for a closer look

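Tmem119, a microglial membrane protein gene, stood on opposite sides of the assays under the 2 treatments. It had 2211, 2141 and 1782 normalised CPM in PBS RNA-seq and 1403, 1499 and 1232 in PBS PAPERCLIP, with all RNA-seq libraries above (log2 difference 0.571). In LPS all RNA-seq libraries were below all PAPERCLIP libraries, with a log2 difference of -0.22 that did not pass the test (adjusted p = 0.175). The change of difference between treatments was not tested.

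Mitochondrially encoded genes were listed in the RNA-seq tables and not joined to PAPERCLIP. The 13 protein-coding ones took 1.57, 1.36 and 1.06% of the PBS RNA-seq counts, a mean of 1.33% ± 0.256 (SD, n = 3). They took 1.51, 1.45 and 1.42% of the LPS RNA-seq counts and 0.766, 0.694 and 0.578% of those of Ptbp2-KO cortex, whose RNA was selected differently.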

How the results depend on the processing

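Of 567 genes listed or named, 448 were called in PBS; 381 kept their call under every alternative that tested them and 67 lost it under at least 1. With total counts the median over all genes rose by the amount given above, and without a filter it was 0.696, over more genes. With total counts, Ctsh (0.11, or 0.0536 with own-table totals), Mapk3 (0.0399), Rpl8 (0.0173) and Slc40a1 (0.00228) changed sign, none then passing the test. The list medians became 3.72 for immediate-early genes, 0.44 for microglial genes and 1.02 for ribosomal genes with total counts, 0.38 and 0.96 for the last 2 with own-table totals, 0.16 for microglial genes without a filter and 0.34 for ribosomal genes after thinning. Total counts left 686 LPS genes 4-fold lower. Without a filter, 2493 PBS genes were 4-fold higher and 1509 4-fold lower, and 2444 LPS genes 4-fold higher. Thinning left 1988 PBS genes higher, 885 of them 4-fold; fewer counts enter that fit. Without replicate 3 of both assays, the log2 ratio of choroid shares was 8.72. Mean rho was 0.696 over 15948 genes with a count and 0.516 over 10478 genes at 5 CPM or more. DESeq2 called 3122 higher and 2414 lower.

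Leaving out 1 library at a time gave 2496 to 3370 PBS genes higher and 2068 to 2591 lower (4-fold: 1148 to 2013 and 777 to 1057), and 3443 to 3769 and 2983 to 3227 in LPS (4-fold: 1606 to 1827 and 1121 to 1194). Medians ranged from 2.91 to 3.45 for immediate-early, 1.47 to 2.07 for heat shock, 0.52 to 0.58 for ribosomal and -0.07 to 0.05 for microglial genes. Log2 ratios of shares ranged from 4.91 to 5.83 for endothelial, 5.67 to 8.30 for choroid, 4.09 to 6.05 for neutrophil, -5.60 to -4.02 for neuronal, 1.38 to 1.59 for heat shock, 1.13 to 1.33 for immediate-early and -1.61 to -1.52 for ribosomal genes, and mean rho from 0.412 to 0.439. A replicate block gave 3035 higher and 2378 lower; same-numbered libraries did not deviate together (correlations -0.046, -0.016 and -0.084), so the numbers only name libraries. An offset for transcript length was not run. Depth limits low genes in PAPERCLIP, where 1 count is worth several CPM.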

Other observations

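Interferon-stimulated genes, the antiviral response set, went both ways, with 6 lower (background 29.8%) and 3 higher (background 37.9%) in RNA-seq of 15 tested. Bst2, which tethers enveloped viruses to the cell surface, had 49.0, 42.8 and 46.3 normalised CPM in RNA-seq and 1006, 1409 and 1186 in PAPERCLIP (log2 difference -4.69, adjusted p = 2.05e-09). Their summed share was 0.0572, 0.0569 and 0.0683% in RNA-seq and 0.154, 0.172 and 0.163% in PAPERCLIP, and in LPS 0.105 to 0.121% in RNA-seq and 0.420 to 0.540% in PAPERCLIP. The transcription factor gene Irf9 was higher in RNA-seq (1.34).

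Purinergic receptors and enzymes gave 4 higher (background 37.9%) and 1 lower (background 29.8%) of 7. The ATP-degrading Entpd1 was at 1033, 1016 and 885 normalised CPM in RNA-seq and 225, 243 and 211 in PAPERCLIP (log2 difference 2.12). Ferritin chains parted, with the heavy chain Fth1 lower (-1.27) and the light chain Ftl1 higher (1.83). Of 11 cholesterol synthesis genes, 4 were higher (background 37.9%) and 3 lower (background 29.8%), near the shares over all genes.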
